A study of Mus musculus with 35 samples.

Results

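Whole lungs of mice that had inhaled 10 ppm styrene were compared with whole lungs of mice that had breathed air alone. Members were all non-control probe sets that the annotation pairs with exactly 1 gene, with the brightest probe set standing for each gene, which gave 17098 genes on 10 of the study's 35 arrays, 5 at 10 ppm and 5 at 0 ppm. All animals were adult male wild-type C57Bl/6 mice from one supplier, caged singly in wire mesh during a single 6 h exposure, and killed with pentobarbital and exsanguination the next morning. The labels separate the groups used here only by dose. It was 10 ppm for the group described and 0 ppm (air), 5 ppm or 20 ppm for the groups it is set against, with 5 arrays in each. Animal numbers in the titles ran in blocks by dose, so any effect of their order cannot be told apart from dose. The labels call the arrays of a group biological replicates. Values are log2 signals of Affymetrix HT MG-430 PM arrays, on which each probe set reads the 3' end of a transcript. A difference is the mean at 10 ppm minus the mean of the other group, so a difference of 1 on this scale means a doubled signal, and a change given without a unit is such a difference.

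Styrene is a volatile aromatic hydrocarbon used to make plastics and resins. In the mouse lung it is oxidised mainly by the cytochrome Cyp2f2 of club cells, the secretory cells of the small airways, and by Cyp2e1, and the styrene oxide formed is cleared by epoxide hydrolase and by conjugation with glutathione. Interferons, whose induced genes form the list with the highest share of risen members below, are cytokines. Their receptors signal through STAT and IRF transcription factors and switch on antiviral genes. Type 2 cytokines act on airway epithelium and macrophages and are known for mucous cell genes, resistin-like proteins and eosinophil-attracting chemokines.

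At 10 ppm, 884 genes (5.17% of the 17098 tested) rose and 1132 (6.62%) fell in limma at an adjusted p of 0.05, so 2016 genes (11.8%) changed in either direction. By fitted difference, 204 genes rose and 63 fell by at least 1 log2 unit. The 5 arrays at 10 ppm lay wholly above the 5 at 0 ppm for 961 genes (5.62%) and wholly below them for 1376 (8.05%). The median difference over all genes was -0.024. A bright gene had every array of its brighter group above the highest of the 23 nonspecific-hybridisation controls on that array. This held for 677 of the genes that rose and 884 of those that fell, and the genes named below come from these unless another reason is given. The highest control averaged 6.17 over all 35 arrays, 6.03 at 10 ppm and 6.08 at 0 ppm. The second highest averaged 4.18 over all 35 arrays, so this cutoff is strict and rests on the brightest 1 of the 23 controls. Where arrays of the dimmer group lay under that control, the fold is a lower bound, marked "at least", for which the dim arrays took the control's value, and the fitted difference beside it, which uses the arrays' own values, measures neither its size nor its rank. The 14 largest rises by fitted difference held the mucous cell protein Clca1, the chemokine Cxcl10, 7 interferon-induced genes (Mx1, Oasl1, Ifit1, Ifit2, Rsad2, Apol9a and Irf7), the epithelial genes Slc26a4, Agr2 and Sprr1a, the acute phase protein Saa3 and the protease inhibitor Timp1. The 14 largest falls by fitted difference held the lipid genes Acaa1b and Fabp1, the detoxifying enzymes Pon1 and Cyp1a1, the methyltransferase Gnmt, the secreted proteins Azgp1, Ear3, Lgals2 and Gal, the bicarbonate transporter Slc4a5, the lysosomal protease Ctsf, the transcription factor Mycl, Bex2 and the neutrophil protein S100a8.

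**Figure D1:**
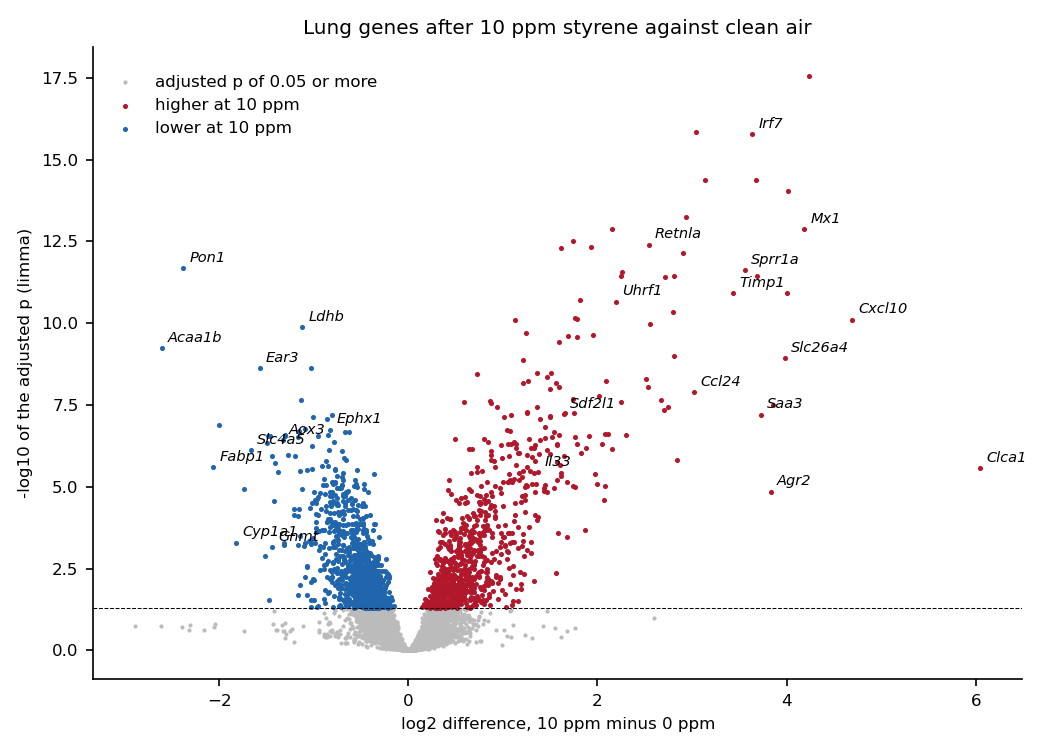
Each point is 1 of 17098 genes, with the log2 difference of 10 ppm minus 0 ppm on the horizontal axis and the negative log10 of limma's adjusted p on the vertical axis. Red points are the 884 genes that rose, blue points the 1132 that fell, and the dashed line marks an adjusted p of 0.05; differences of genes with a group under the nonspecific control are fitted values only.

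In a principal component analysis of the 10 arrays, component 1 held 44.7% of the variance and separated the groups, at -27.34 to -15.83 at 10 ppm and 15.45 to 27.96 at 0 ppm. None of 9 array summaries differed in a two-sided exact permutation test after Benjamini-Hochberg adjustment. With 5 against 5 arrays the smallest p is 0.00794, so a single fully separated summary could not have passed 0.05 after adjustment. The lowest unadjusted exact permutation p were 0.0635 for the upper quartile and 0.0714 for the Gapdh 3' minus 5' control signal. The poly-A spike-ins were at 6.03 to 6.74 at 10 ppm and 6.44 to 6.74 at 0 ppm (exact permutation p = 0.127, adjusted 0.381). Lung markers were bright, with Scgb1a1, the main secretory protein of club cells, at 13.82 to 13.88 at 10 ppm and 13.84 to 13.96 at 0 ppm. Liver transcripts were present on some control arrays: Alb, the serum albumin gene, read 4.91, 5.46, 5.10, 4.43 and 4.04 at 10 ppm, against 4.94, 4.38, 11.19, 10.47 and 6.04 at 0 ppm. The mean log2 signal of 12 hepatocyte markers was 4.06 to 4.40 at 10 ppm and 4.26 to 8.89 at 0 ppm, with the replicates 3 and 4 at 0 ppm high at 8.89 and 7.84. None of these 12 genes passed the test, although 1 fell without replicate 5 at 0 ppm. Without those 2 arrays, an alternative chosen after the data were seen, 624 genes rose and 785 fell. The named genes were looked up in that fit, apart from the called genes Ifi27l2a, Acadm, Hadh and Fads3, for which no such value is given. Of 186 called genes looked up 21 were then not called (limma's adjusted p 0.0502 to 0.246): Adgre1, Aldh1a7, Car4, Col13a1, Cxcl15, Dpt, Fcgbp, Fos, Gbp2, H2-DMb1, Hopx, Krt79, Lpcat1, Lrrn4, Lypd2, Mad2l1, Marco, Msln, Psmb9, S100a8 and Scgb3a2. Markers of skeletal muscle, thymus, T cells and NK cells gave no called gene, and most of them lay below the control level. Cardiac muscle and adipocyte markers gave no called gene either, but their means varied widely within both groups. The cardiac muscle mean was 5.85 to 8.43 at 10 ppm and 6.8 to 7.91 at 0 ppm. For adipocyte markers it was 5.27 to 6.64 at 10 ppm and 5.0 to 7.06 at 0 ppm. Fewer cells of a type and less RNA per cell cannot be told apart in whole-lung RNA, which holds for every marker list below.

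Interferon-induced genes made up the group with the highest share of risen members. The lists used here and below were chosen with earlier results of these data known. Over all genes tested 5.17% rose and 6.62% fell, and for 5.62% the groups did not overlap with 10 ppm higher. Of 33 measured antiviral effectors, 31 rose and 0 fell, with a median difference of 1.69 (1.61 over 30 members with a fold when dim arrays took the control's value) against -0.024 over all genes, and the groups did not overlap for 30 of them. Mx1, a dynamin-like GTPase that blocks viral replication, read 8.58, 9.0, 8.61, 7.85 and 8.74 at 10 ppm, against 4.15, 4.73, 4.34, 4.13 and 4.52 at 0 ppm. It rose at least 5.58-fold (fitted log2 difference 4.18, SE 0.26, limma's adjusted p = 1.33e-13), and every control array lay under its highest nonspecific control. Ifit1, which binds viral RNA lacking the cap methylation of host messages, read 10.33, 10.96, 9.92, 9.97 and 10.71 at 10 ppm, against 5.77, 5.89, 6.74, 6.46 and 7.02 at 0 ppm. No array at 10 ppm came near the highest control array, and the gene rose at least 14.8-fold (fitted log2 difference 4.00, SE 0.31, limma's adjusted p = 1.23e-11). Rsad2 encodes viperin, an enzyme that makes a chain-terminating nucleotide, and read 10.45, 11.28, 10.31, 10.01 and 10.70 at 10 ppm, against 6.65, 6.22, 6.67, 7.13 and 7.65 at 0 ppm (log2 difference 3.69, SE 0.27, limma's adjusted p = 3.63e-12). Oasl1, a member of the oligoadenylate synthetase family, and Ifit2, a relative of Ifit1, rose at least 6.67-fold and at least 9.4-fold. Apol9a, an interferon-induced apolipoprotein L, rose at least 5.62-fold. Ifi27l2a was the risen effector whose groups overlapped.

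A short DNA element, the interferon-stimulated response element, binds a complex that holds STAT2 and IRF9, and the promoters of 3 genes that rose are shown because they hold it. The search used the letters GAAA, any 2 bases and GAAA again on both strands in the 250 bases before each RefSeq start (GRCm38.p6, any of a gene's listed starts), and 13514 of the genes tested had such a promoter. The element's letters stood in 420 of these (3.11%), in 54 of 714 with a promoter that rose (7.56%), in 17 of 911 that fell (1.87%), in 9 of 25 antiviral effectors (36%), in 2 of 18 interferon transcription factors and sensors (11.1%) and in 7 of 8 interferon-gamma type GTPases (87.5%). The list members were named from knowledge of interferon genes, with earlier results of these data known, so the list shares describe the lists and not these arrays. Each sequence below runs 5′ to 3′ on the gene's strand, with matches in capitals, read as TTTC, 2 bases and TTTC where the match lies on the other strand. Ifit1 has 2 matches in this window at chr19:34640759-34640858 (plus strand, 130 to 31 bases before the start), Rsad2 has 1 at chr12:26456518-26456617 (minus strand, 165 to 66 bases before) and Gbp3 has 2 that overlap at chr3:142559944-142560043 (plus strand, 100 to 1 bases before). Gbp3 was added after its values were seen.
Ifit1: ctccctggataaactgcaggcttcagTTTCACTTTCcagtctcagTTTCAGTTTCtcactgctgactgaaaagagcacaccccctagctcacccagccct
Rsad2: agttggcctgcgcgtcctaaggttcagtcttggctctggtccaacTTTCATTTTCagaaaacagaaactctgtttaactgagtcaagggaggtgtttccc
Gbp3: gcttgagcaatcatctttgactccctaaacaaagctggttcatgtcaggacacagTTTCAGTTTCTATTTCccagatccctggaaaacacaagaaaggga

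No interferon ligand passed the test. Of 11 measured ligands and receptors 0 rose and 1 fell, the interferon-gamma receptor chain Ifngr1 (log2 difference -0.37, SE 0.09, limma's adjusted p = 0.00682). That 9.09% is near the 6.62% that fell over all genes. Ifng, the gene of interferon gamma, lay far below the nonspecific control, at 3.26, 3.17, 3.02, 2.90 and 3.04 at 10 ppm, against 3.32, 3.22, 3.21, 2.97 and 3.19 at 0 ppm (log2 difference -0.11, SE 0.10, limma's adjusted p = 0.613). Ifnb1 was likewise under that control on all 10 arrays, where the array gives only a bound. The receptor chains Ifnar1 and Ifnar2 were bright and differed by -0.03 and -0.06, with 95% intervals of -0.28 to 0.21 and -0.26 to 0.14.

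Downstream of the receptors, 14 of 24 transcription factors, RNA or DNA sensors and regulators rose and 0 fell, and in each of the 14 the groups did not overlap. The risen share was 58.3%, against 5.17% over all genes, of which 5.62% had groups that did not overlap in that direction. Irf7, the factor that amplifies type I interferon transcription, read 9.45, 10.00, 9.96, 9.46 and 9.87 at 10 ppm, against 5.82, 5.81, 6.12, 6.32 and 6.50 at 0 ppm. The groups were far apart on every array, and it rose at least 11.3-fold (fitted log2 difference 3.63, SE 0.18, limma's adjusted p = 1.64e-16). Stat2, a partner in the complex that binds the response element, rose at least 3.33-fold, and Irf9, another partner, named after its values were seen, by 0.98. The RNA sensor Ifih1 (MDA5) read 6.90, 7.80, 6.63, 6.98 and 7.69 at 10 ppm, against 4.83, 5.11, 4.75, 5.61 and 5.84 at 0 ppm (fitted log2 difference 1.97, SE 0.28, limma's adjusted p = 4.16e-06). Dhx58, a helicase of the same family, rose at least 5.6-fold. Zbp1, a sensor of Z-form nucleic acid that can trigger necroptosis, rose at least 5.75-fold, and Usp18, the protease that removes ISG15 and dampens the receptor, by 2.72.

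Of 12 interferon-gamma type GTPases, which attack the vacuoles of intracellular pathogens, 10 rose and 0 fell. Iigp1 read 9.48, 10.49, 9.34, 9.27 and 10.14 at 10 ppm, against 5.96, 6.24, 7.14, 7.24 and 7.97 at 0 ppm. The controls were widely spread, and the lowest array at 10 ppm still lay above the highest of them (at least 6.77-fold higher, fitted log2 difference 2.84, SE 0.38, limma's adjusted p = 1.48e-06). Gbp3 rose at least 3.81-fold, Tgtp1 by 1.91 and Irgm1 by 1.83. The smallest rise was that of Gbp2, 0.50, with overlapping groups. In the class I antigen presentation list 9 of 15 members rose and 0 fell, or 5 rose without the replicates 3 and 4 at 0 ppm. Nlrc5, the transactivator of class I genes, read 7.57, 7.72, 7.73, 7.18 and 7.71 at 10 ppm, against 5.39, 5.73, 6.25, 5.32 and 6.42 at 0 ppm (fitted log2 difference 1.76, SE 0.26, limma's adjusted p = 9.85e-06). The immunoproteasome subunits Psmb8 (difference 0.91), Psmb9 (0.51) and Psmb10 (0.45) and the activator subunits Psme1 (0.40) and Psme2 (0.44) rose with it. Of 30 constitutive proteasome subunits 3 rose and 0 fell, the largest difference being 0.54 for Psmd14. Without any 1 of 8 arrays (all but the replicates 1 and 5 at 0 ppm), or without the replicates 3 and 4 at 0 ppm together, 1 rose. Of 12 class II genes 1 rose (8.33%) and 2 fell (16.7%), against 5.17% and 6.62% over all genes. H2-DMb1 (difference 0.46) was not called without any 1 of 5 arrays (replicates 2 and 4 at 0 ppm and 1, 3 and 5 at 10 ppm), and 1 in place of 2 fell without any 1 of 8 arrays (all but replicate 2 at 0 ppm and replicate 1 at 10 ppm), while 0 rose and 1 fell without the replicates 3 and 4 at 0 ppm together.

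**Figure D2:**
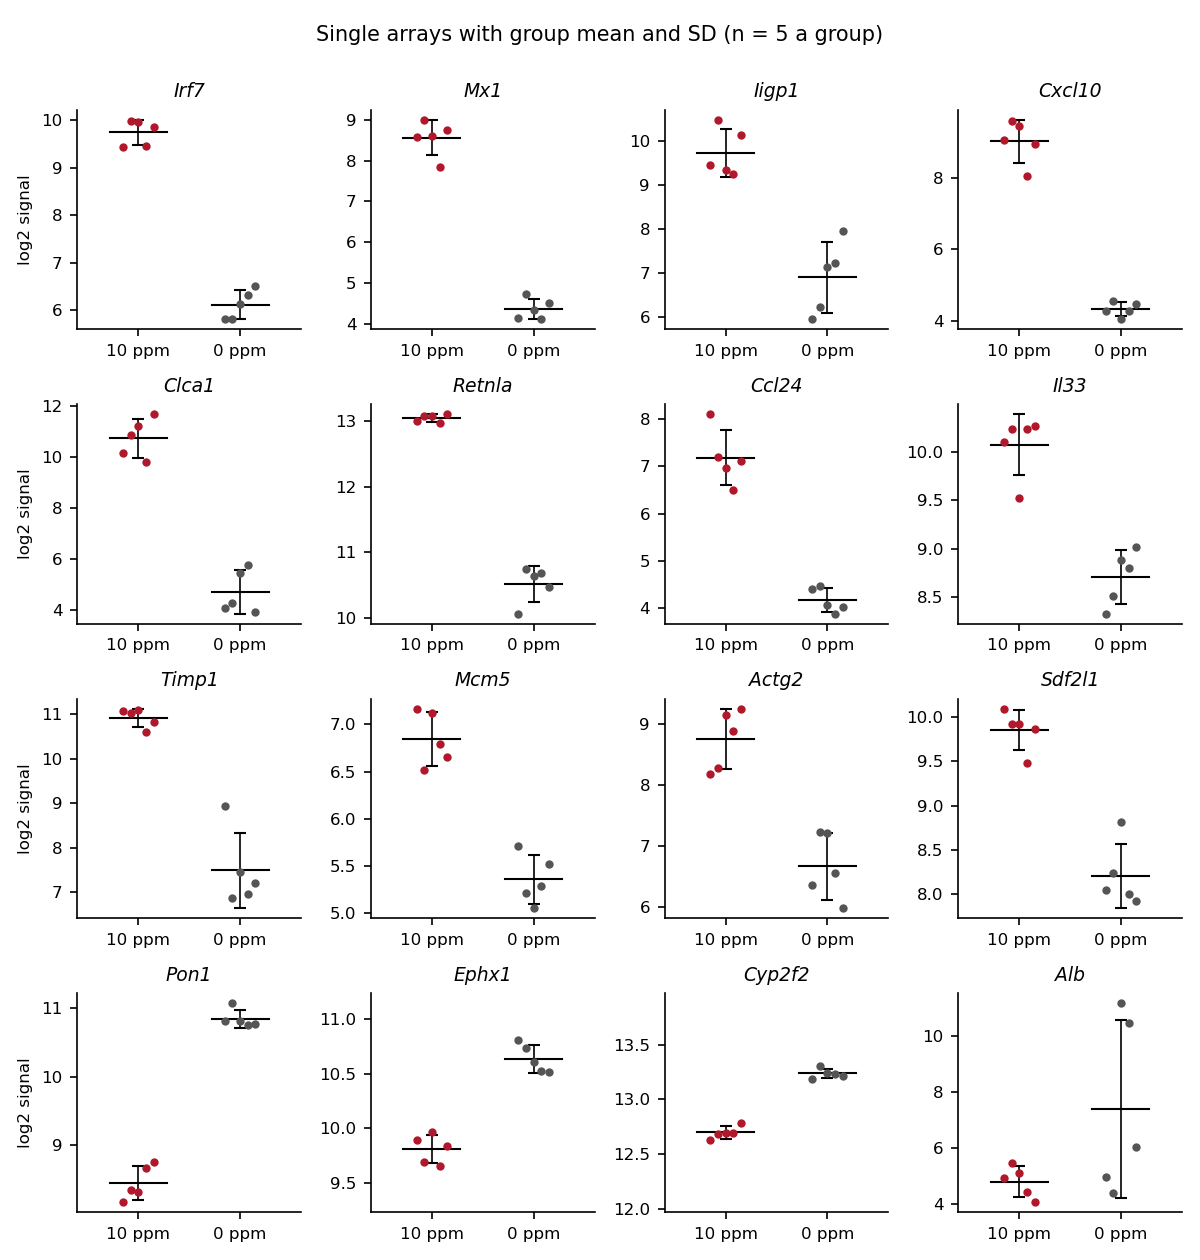
Log2 signals of single arrays for 16 genes, with the 5 arrays at 10 ppm (red) left of the 5 at 0 ppm (grey), each with its mean (line) and SD (bar). Vertical axes differ between panels; in 15 of the 16 panels the groups do not overlap, and in the Alb panel the replicates 3 and 4 at 0 ppm stand at 11.19 and 10.47.

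Among 34 chemokines, the secreted proteins that guide leukocytes, 16 rose and 5 fell. Cxcl10, which draws T cells and NK cells through CXCR3, read 9.07, 9.59, 9.44, 8.04 and 8.95 at 10 ppm, against 4.28, 4.56, 4.05, 4.27 and 4.47 at 0 ppm. All 5 arrays at 0 ppm lay below the nonspecific control, so its rise of at least 7.67-fold (fitted log2 difference 4.69, SE 0.39, limma's adjusted p = 7.76e-11) is a lower bound. The monocyte-attracting Ccl12 rose at least 1.72-fold and Ccl8 by at least 3.83-fold. Ccl24, an eotaxin that attracts eosinophils, read 8.11, 7.21, 6.97, 6.51 and 7.12 at 10 ppm, against 4.40, 4.47, 4.05, 3.88 and 4.02 at 0 ppm. Replicate 1 was the highest of the 10 ppm arrays, and all 5 lay above every control array (at least 2.15-fold higher, fitted log2 difference 3.02, SE 0.31, limma's adjusted p = 1.27e-08). Ccl17 and Ccl22, ligands of CCR4 on type 2 T cells, rose by 2.02 and at least 2.68-fold. Chemokines of platelet granules fell: Pf4 differed by -0.55 and Ppbp by -0.94, as did the membrane-bound Cx3cl1 (-0.51). Both granule genes also stand in the list of 6 platelet markers, of which 3 fell, Gp9 (at least 1.29-fold lower) being the other. That list's mean was 5.96 to 6.06 at 10 ppm and 6.36 to 6.83 at 0 ppm. Whether fewer platelets in the lung moved with these values was not tested.

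Of 19 type 2 inflammation genes 6 rose and 0 fell, and the groups did not overlap for these 6. The risen share was 31.6%, against 5.17% over all genes, of which 5.62% had groups that did not overlap in that direction. Retnla, a resistin-like protein of alternatively activated macrophages and airway epithelium, read 13.01, 13.09, 13.09, 12.98 and 13.11 at 10 ppm, against 10.06, 10.74, 10.63, 10.68 and 10.47 at 0 ppm. The groups were far apart, for a rise of 5.82-fold (log2 difference 2.54, SE 0.17, limma's adjusted p = 3.97e-13), and the 10 ppm arrays stood together near the top of the signal range, where probes can saturate. Mgl2, a lectin of type 2 macrophages and dendritic cells, rose by 0.80. Il33, an alarmin stored in the nuclei of epithelial cells that drives type 2 cytokine release, read 10.11, 10.24, 9.52, 10.24 and 10.28 at 10 ppm, against 8.33, 8.51, 8.88, 8.80 and 9.01 at 0 ppm. Every 10 ppm array exceeded every control array (log2 difference 1.37, SE 0.19, limma's adjusted p = 3.56e-06). In the list of 31 interleukins and other cytokines only Il33 and Tnfsf9 (at least 2.04-fold) rose, and Il16 (-0.67) and Il18 (-0.69), another alarmin of the same family as Il33, fell. These shares, 6.45% in each direction, are near the 5.17% risen and 6.62% fallen over all genes.

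The IL-6 and acute phase list had 12 of 25 members that rose and 1 that fell. Saa3, the serum amyloid A made in lung epithelium and macrophages, read 9.87, 9.96, 10.00, 9.42 and 9.78 at 10 ppm, against 8.79, 4.90, 5.73, 5.32 and 5.65 at 0 ppm. Replicate 1 at 0 ppm was high, yet still below every 10 ppm array, and the rise was at least 9.44-fold (fitted log2 difference 3.73, SE 0.42, limma's adjusted p = 6.24e-08). Lcn2, an iron-scavenging antibacterial protein, rose by 1.77, Serpina3n, a protease inhibitor, by 1.79, and Socs3, the feedback inhibitor of IL-6 signalling, by 1.38. Il6ra, the IL-6 receptor chain, was the member that fell, by log2 difference -0.85, SE 0.12, limma's adjusted p = 2.37e-06.

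Among 11 neutrophil markers 0 rose and 1 fell, S100a8, which read 7.49, 8.17, 8.69, 8.96 and 9.34 at 10 ppm, against 10.24, 8.53, 9.69, 10.44 and 11.12 at 0 ppm. Its groups overlapped, and its call (log2 difference -1.48, SE 0.46, limma's adjusted p = 0.0288) was lost without the replicates 1, 4 or 5 at 0 ppm or 1 or 2 at 10 ppm, and without the replicates 3 and 4 at 0 ppm together, while 3 markers of the list fell without replicate 2 at 0 ppm. No marker of T cells (7), NK cells (9) or B cells (8) passed the test. In the list of 11 mast cell and eosinophil genes only Siglecf fell, a lectin that alveolar macrophages also carry. The 9.09% that fell in this list and in the neutrophil list is near the 6.62% over all genes. Siglecf read 6.28, 5.85, 5.54, 6.10 and 5.97 at 10 ppm, against 6.93, 7.21, 7.10, 7.15 and 7.11 at 0 ppm (fitted log2 difference -1.15, SE 0.14, limma's adjusted p = 1.99e-07). Of 13 alveolar macrophage markers 5 fell, Siglecf, the lipid-binding Fabp1, the macrophage-identity factor Pparg (at least 1.34-fold lower), Il18 and Krt79 (-0.67). The scavenger receptor Marco (0.47) and Car4 (0.34), also a capillary marker, rose, but 0 rose without replicate 3 at 0 ppm, with or without replicate 4, and 1 rose without the replicates 4 or 5 at 0 ppm or any 1 array at 10 ppm. Chil3, a chitinase-like protein abundant in the same cells, differed by 0.11. The list's mean was 7.44 to 7.77 at 10 ppm and 7.79 to 8.07 at 0 ppm, but its median difference was -0.038 and 5 of the 13 differences were above 0. Ear3, a ribonuclease of the eosinophil-associated family, read 9.53, 9.19, 9.28, 9.79 and 9.60 at 10 ppm, against 11.00, 10.97, 10.91, 11.23 and 11.14 at 0 ppm (log2 difference -1.57, SE 0.15, limma's adjusted p = 2.31e-09). Among 10 monocyte and interstitial macrophage markers the Fc receptor Fcgr1 rose at least 1.78-fold, and Csf1r, the growth factor receptor of the lineage, fell by log2 difference -0.56, SE 0.12, limma's adjusted p = 0.00167. Adgre1 (-0.40) was the other marker that fell, and 1 fell without the replicates 1 or 5 at 0 ppm or 2 or 4 at 10 ppm or the replicates 3 and 4 at 0 ppm together, while 2 rose without the replicates 1 or 3 at 0 ppm.

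Mucous cell genes were among those that rose. Clca1, a secreted metalloprotease that processes mucus and marks goblet cells, read 10.17, 10.85, 11.22, 9.80 and 11.69 at 10 ppm, against 4.09, 4.28, 5.44, 5.78 and 3.92 at 0 ppm. Every control array lay below the nonspecific control and every 10 ppm array far above it, for a rise of at least 25.5-fold (fitted log2 difference 6.05, SE 0.83, limma's adjusted p = 2.69e-06). Slc26a4, the anion exchanger pendrin, read 8.66, 9.29, 8.84, 8.15 and 8.92 at 10 ppm, against 4.81, 4.36, 4.97, 4.72 and 5.08 at 0 ppm (fitted log2 difference 3.98, SE 0.37, limma's adjusted p = 1.18e-09). Agr2, a disulfide isomerase needed to fold mucins, read 7.22, 7.72, 8.78, 8.16 and 8.79 at 10 ppm, against 3.77, 4.02, 5.09, 4.58 and 4.06 at 0 ppm (fitted log2 difference 3.83, SE 0.59, limma's adjusted p = 1.4e-05). Of the 28 genes in the goblet cell and mucus list 6 rose and 0 fell, and Fcgbp, a mucin-binding protein, was another of them (0.75), while 1 fell without replicate 5 at 10 ppm. With array weights, or in the fit without the 120 ppm group, 11 of the 28 rose, and 10 rose in the fit of these 2 groups alone. Muc5ac, the mucin of goblet cells, lay at 3.96 to 4.60 at 10 ppm and 3.98 to 4.30 at 0 ppm, below the nonspecific control on all 10 arrays (log2 difference 0.11, SE 0.13, limma's adjusted p = 0.732), so the array gives no measure of it. Reg3g, an antibacterial lectin of airway cells named after its values were seen, read 8.67, 9.91, 10.78, 10.53 and 11.40 at 10 ppm, against 6.04, 8.97, 9.89, 8.22 and 5.18 at 0 ppm, and its groups overlapped (log2 difference 2.60, SE 1.01, limma's adjusted p = 0.0997).

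In the list of 22 keratins and squamous genes 8 rose and 0 fell. Sprr1a, a cornified envelope protein of squamous and regenerating epithelium, read 8.42, 8.74, 9.40, 8.44 and 9.0 at 10 ppm, against 5.59, 5.64, 4.72, 5.07 and 5.19 at 0 ppm. It rose at least 6.6-fold (fitted log2 difference 3.56, SE 0.25, limma's adjusted p = 2.34e-12), with no overlap. Its relative Sprr2a1 rose at least 1.78-fold and Sfn, the epithelial 14-3-3 protein, by at least 1.93-fold. Of the simple epithelial keratins, Krt18 rose by 0.61, Krt8 by 0.59 and Krt19 by 0.56. Hbegf, a ligand of the EGF receptor released by injured epithelium, read 9.10, 9.81, 9.93, 10.24 and 9.85 at 10 ppm, against 8.85, 8.53, 8.50, 8.90 and 8.88 at 0 ppm (log2 difference 1.05, SE 0.20, limma's adjusted p = 0.000268). It was the sole riser among 12 receptors and ligands of that family, in which Erbb3 fell by log2 difference -0.56, SE 0.13, limma's adjusted p = 0.00206, while Egfr differed by -0.08 with a 95% interval of -0.33 to 0.16. With 8.33% in each direction, the list is near the 5.17% risen and 6.62% fallen over all genes.

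Of 47 measured genes of lung xenobiotic metabolism, which process styrene and other foreign compounds, 23 fell, 3 rose and 21 did not pass the test, with a median difference of -0.36. Cyp2f2, the main styrene-oxidising enzyme, read 12.63, 12.68, 12.70, 12.70 and 12.79 at 10 ppm, against 13.19, 13.31, 13.25, 13.23 and 13.21 at 0 ppm. The groups were apart on every array, but both stood near the top of the signal range, where probes can saturate (log2 difference -0.54, SE 0.08, limma's adjusted p = 9.85e-06). Cyp2e1, the second styrene oxidase, read 9.38, 5.25, 7.18, 8.36 and 8.59 at 10 ppm, against 7.41, 7.30, 9.78, 8.01 and 6.12 at 0 ppm. Its spread within each group was far larger than the difference between them (log2 difference 0.03, SE 0.80, limma's adjusted p = 0.992, 95% interval -1.60 to 1.66), and it is also abundant in hepatocytes and fat. Ephx1, the microsomal epoxide hydrolase that opens styrene oxide, read 9.89, 9.70, 9.96, 9.66 and 9.84 at 10 ppm, against 10.81, 10.73, 10.60, 10.53 and 10.51 at 0 ppm. All 5 arrays at 10 ppm lay below all 5 at 0 ppm, a fall of log2 difference -0.83, SE 0.10, limma's adjusted p = 1.78e-07.

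The glutathione transferases Gstm1 (-0.70), Gstm2 (-0.66), Gstt1 (-0.64), Gstt3 (-0.46) and Gstk1 (-0.95) fell, and Gsto1 rose by 0.92. Of these, the Gstm and Gstt genes were named after their values were seen. Gsta2 rose by log2 difference 1.88, SE 0.24, limma's adjusted p = 6.76e-07 on its brightest probe set, but another bright probe set of the gene was called in the opposite direction, so its call is uncertain. Akr1b8, an aldo-keto reductase, rose by log2 difference 1.14, SE 0.16, limma's adjusted p = 2.19e-06. Pon1, a lactone- and ester-hydrolysing enzyme carried on lipoproteins, read 8.17, 8.36, 8.33, 8.67 and 8.76 at 10 ppm, against 10.81, 11.07, 10.80, 10.75 and 10.76 at 0 ppm. Its groups did not come near each other, and it fell 5.21-fold (log2 difference -2.38, SE 0.17, limma's adjusted p = 2.07e-12). Aox3, an aldehyde oxidase, read 8.51, 8.68, 8.52, 8.56 and 8.83 at 10 ppm, against 9.76, 10.02, 9.83, 10.01 and 10.13 at 0 ppm (log2 difference -1.33, SE 0.16, limma's adjusted p = 3.68e-07). Ces1d, a carboxylesterase bright in lung, fell by log2 difference -0.99, SE 0.16, limma's adjusted p = 2.59e-05 and Sult1a1, a phenol sulfotransferase, by log2 difference -0.74, SE 0.16, limma's adjusted p = 0.00183. Cyp1a1 fell by at least 2.77-fold, fitted log2 difference -1.82, SE 0.36, limma's adjusted p = 0.000507. It was the member called among 9 genes of the aryl hydrocarbon receptor, which induces it. That share is 11.1%, against 6.62% that fell over all genes.

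**Figure D3:**
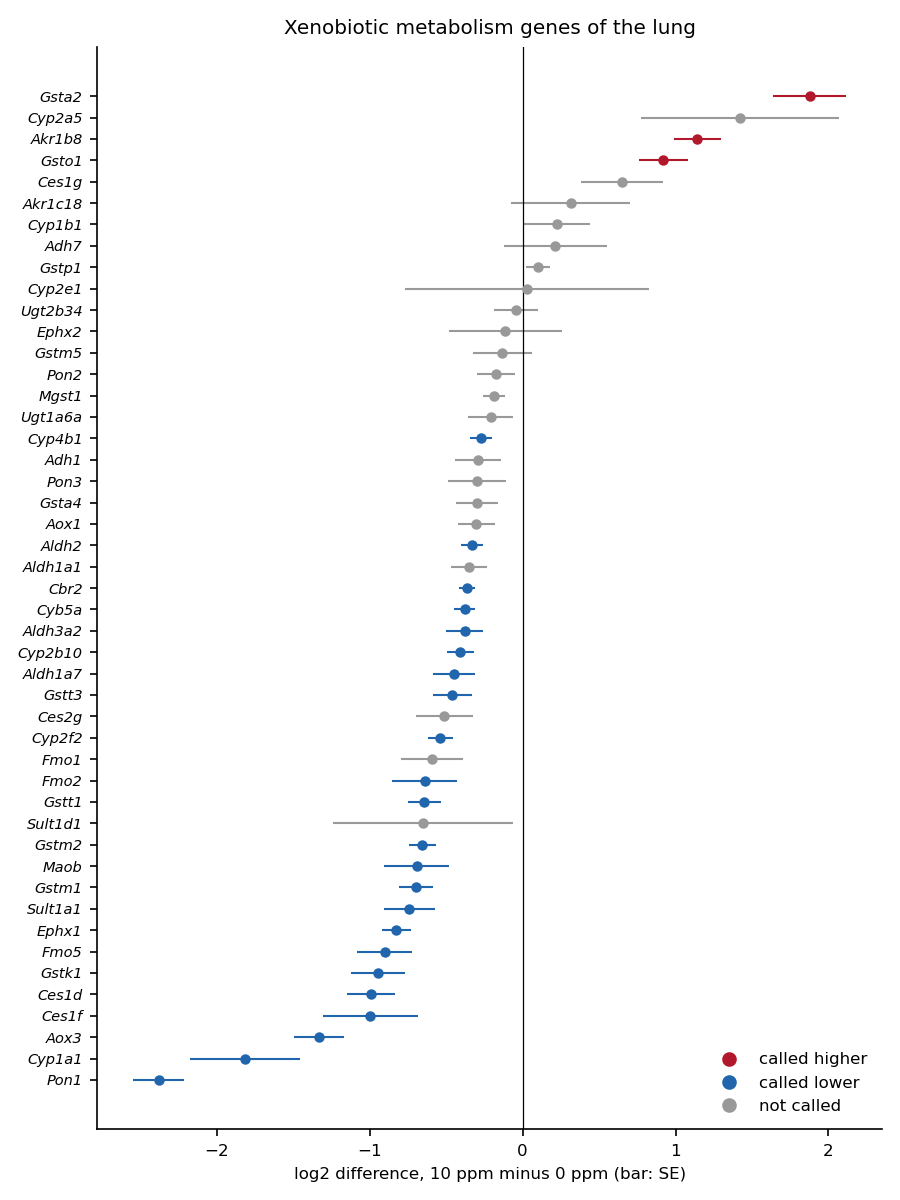
Log2 differences (10 ppm minus 0 ppm, points) with limma's SE (bars) for the 47 measured xenobiotic metabolism genes, ordered from the highest to the lowest. Red points are the 3 that rose, blue the 23 that fell and grey those not called; Gsta2 is highest at 1.88 and Pon1 lowest at -2.38.

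Some falling genes are also liver genes, and the hepatocyte markers were high on replicates 3 and 4 at 0 ppm. Acaa1b, a peroxisomal thiolase, read 5.03, 4.74, 4.85, 5.82 and 5.17 at 10 ppm, against 7.49, 7.68, 8.08, 7.52 and 7.86 at 0 ppm. All 5 arrays at 0 ppm were high, replicates 1, 2 and 5 too, and all 5 at 10 ppm lay under the nonspecific control (at least 3.23-fold lower, fitted log2 difference -2.61, SE 0.24, limma's adjusted p = 5.89e-10). Without replicates 3 and 4 the fitted difference was -2.55. Fabp1 read 5.77, 5.33, 5.46, 6.07 and 5.76 at 10 ppm, against 7.47, 7.18, 8.63, 7.95 and 7.50 at 0 ppm, highest on those 2 control arrays (at least 3.21-fold lower, fitted log2 difference -2.07, SE 0.28, limma's adjusted p = 2.51e-06, and -1.70 without those arrays). Azgp1, a secreted zinc-binding glycoprotein, read 5.42, 5.67, 5.74, 5.96 and 5.66 at 10 ppm, against 7.01, 7.42, 8.17, 7.62 and 6.93 at 0 ppm (fitted log2 difference -1.74, SE 0.26, limma's adjusted p = 1.14e-05, and -1.43 without those arrays). Gnmt, which consumes S-adenosylmethionine, read 7.08, 7.09, 7.38, 6.81 and 7.13 at 10 ppm, against 8.59, 8.27, 9.42, 8.58 and 7.82 at 0 ppm (log2 difference -1.44, SE 0.29, limma's adjusted p = 0.000717, and -1.13 without). For Pon1 the difference without those arrays was -2.42.

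Club cells hold most of the styrene-oxidising capacity of the mouse airway, and their marker list moved downward. Of 9 markers 6 fell and 0 rose: Cyp2f2, the tight junction protein Cldn10 (-0.67), the reductase Cbr2 (-0.36), Aldh1a7 (-0.45), Scgb3a2 (-0.32) and Lypd2 (-1.03). Scgb1a1 did not pass the test (log2 difference -0.04, SE 0.05, limma's adjusted p = 0.696), at signals where probes can saturate. The count was 3 without the replicates 2 or 3 at 0 ppm or 1 or 4 at 10 ppm, and 3 without the replicates 3 and 4 at 0 ppm together. The list's mean was 10.65 to 10.89 at 10 ppm and 11.05 to 11.29 at 0 ppm. Whether a loss of club cells moved with the falling enzymes was not tested. Of 10 ciliated cell markers 1 fell, Tppp3 (-0.48), and 1 rose without replicate 2 at 0 ppm. That 10% is near the 6.62% that fell over all genes. Alveolar type 2 cell genes had 3 that rose, Il33, the surfactant protein Sftpd (0.32) and Cxcl15 (0.20), and 1 that fell, Lpcat1 (-0.22), which was not called without any 1 of 7 arrays (replicates 1, 3, 4 and 5 at 0 ppm and 2, 4 and 5 at 10 ppm) or without the replicates 3 and 4 at 0 ppm together. Of 9 type 1 cell genes Aqp5, a water channel, rose by 0.41 and Hopx fell by 0.18, with no fall without any 1 of the 10 arrays. These are 11.1% in each direction, against 5.17% risen and 6.62% fallen over all genes. Among 7 mesothelial markers Krt19 rose and 4 fell (Upk3b at -1.0, Lrrn4 at least 1.81-fold lower, Upk1b at -0.75 and Msln at -0.63), and 2 fell without the replicates 1, 2 or 3 at 0 ppm or 2, 3 or 4 at 10 ppm or the replicates 3 and 4 at 0 ppm together. That list's mean was 7.78 to 8.24 at 10 ppm and 8.50 to 8.85 at 0 ppm.

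**Figure D4:**
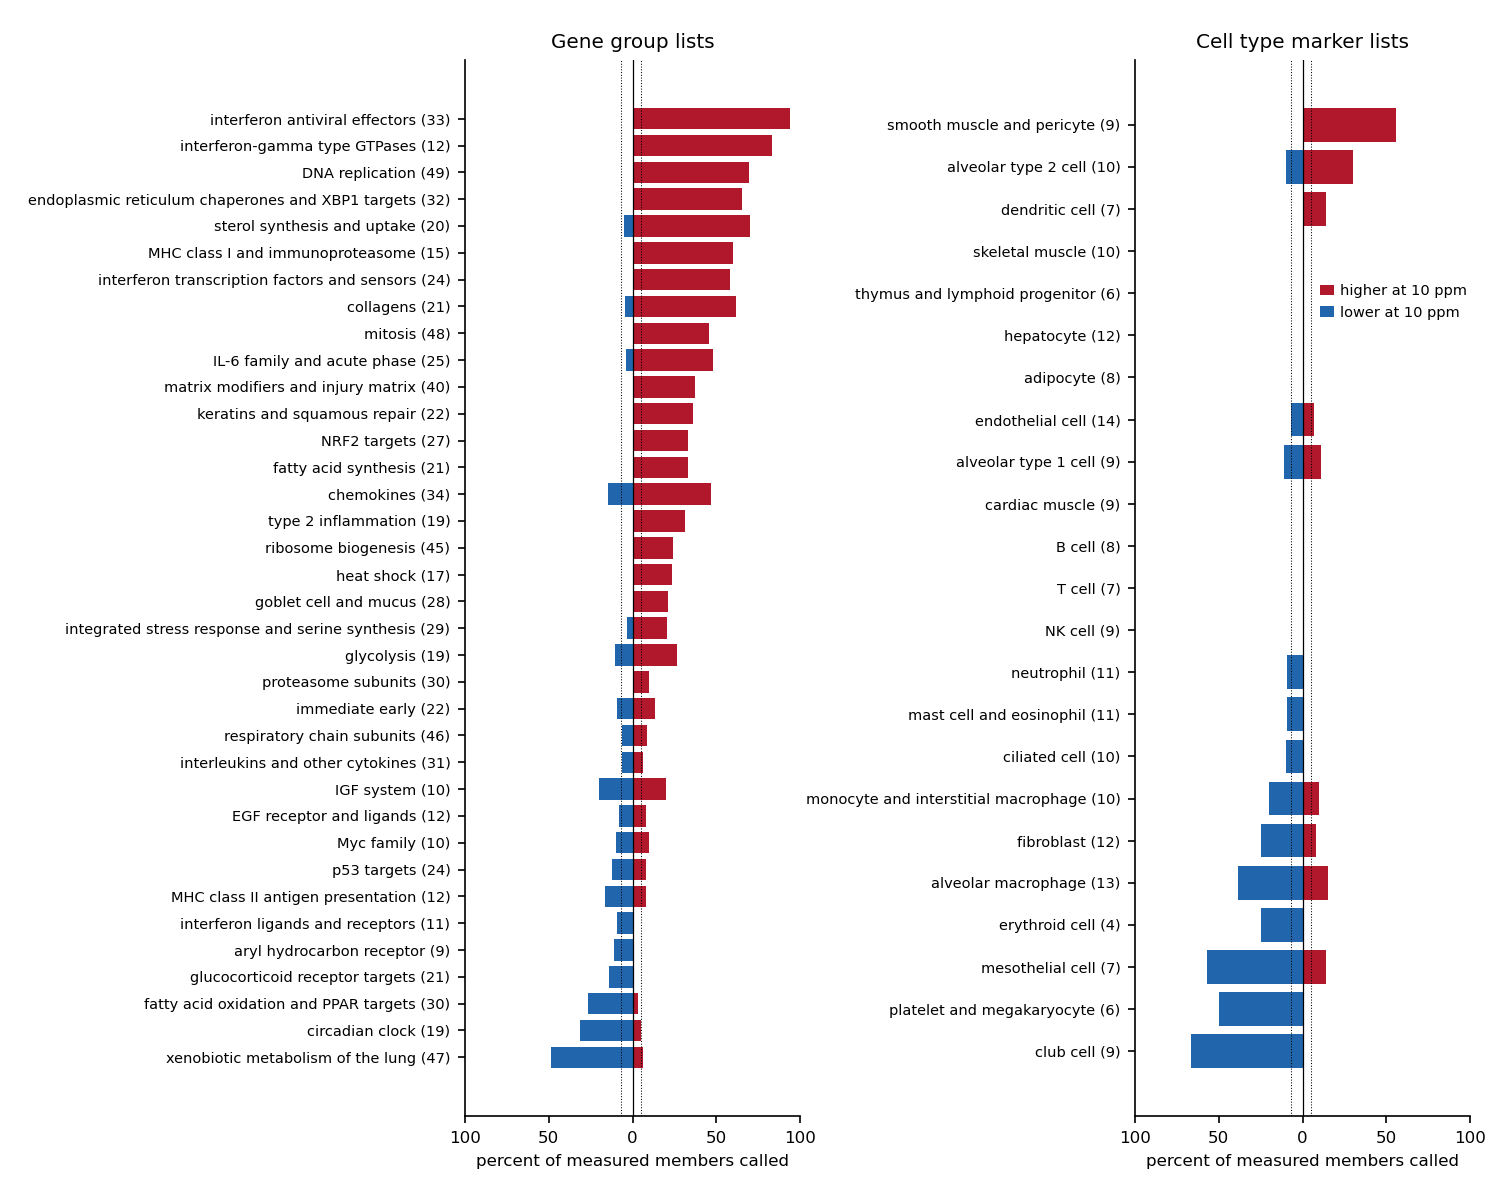
Percent of the measured members of each list (number in brackets) that rose (red, right of 0) and fell (blue, left of 0) at 10 ppm against 0 ppm, for 36 gene groups and 23 cell type marker lists, ordered by the difference of the shares. Dotted lines mark the shares over all genes tested, 5.17% higher and 6.62% lower. These include 9021 genes that averaged under the highest nonspecific control. With those left out 763 genes rose and 1034 fell, so the shares over brighter genes alone are higher than the dotted lines. Antiviral effectors stand at 93.9% higher and xenobiotic metabolism at 48.9% lower.

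NRF2 is the transcription factor that answers electrophiles and oxidants, and 9 of 27 of its targets rose while 0 fell. Gclc, the catalytic subunit of the enzyme that limits glutathione synthesis, read 11.40, 11.49, 11.12, 11.37 and 11.48 at 10 ppm, against 10.13, 10.62, 10.72, 10.73 and 10.75 at 0 ppm (log2 difference 0.78, SE 0.17, limma's adjusted p = 0.00127). The epithelial glutathione peroxidase Gpx2 rose by 0.73, the glutathione reductase Gsr by 0.49 and the thioredoxin reductase Txnrd1 by 0.42. The median of the list was 0.25. Of its members 14 rose and 2 fell with array weights, 13 and 2 in the fit of these 2 groups alone, and 2 rose and 0 fell at a fold of at least 1.5. The antioxidant response element, searched as TGACNNNGC on both strands in the same promoters, stood in 6 of 23 of the list's promoters (26.1%) and in 1808 of 13514 in all (13.4%). Among members that rose it stood in 3 of 7 promoters (42.9%), and among all genes that rose in 106 of 714 (14.8%). The members were named from knowledge of such targets, with earlier results of these data known, so the list share describes the list and not these arrays.

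Genes of DNA replication and nucleotide supply rose in 34 of 49 cases and fell in 0, with a median of 0.60, or 0.45 over the 29 members with a fold when dim arrays took the control's value, and 17 of the 34 were bright on all 10 ppm arrays. Uhrf1, which recruits the maintenance DNA methyltransferase to replicating DNA, read 7.75, 6.88, 7.49, 7.28 and 7.08 at 10 ppm, against 5.75, 5.02, 5.01, 5.11 and 4.61 at 0 ppm. The groups were apart on all arrays (at least 2.33-fold higher, fitted log2 difference 2.20, SE 0.17, limma's adjusted p = 2.21e-11). Mcm5, a subunit of the helicase that opens the replication fork, read 7.17, 6.51, 7.12, 6.79 and 6.66 at 10 ppm, against 5.71, 5.21, 5.05, 5.28 and 5.52 at 0 ppm (fitted log2 difference 1.5, SE 0.15, limma's adjusted p = 1.01e-08). Its partners Mcm2 (1.16) and Mcm6 (1.12) rose with it. Rfc5, of the clamp loader, rose at least 1.98-fold and the DNA ligase Lig1 by 1.09. Of 48 genes of mitosis and the spindle 22 rose and 0 fell, but only Pbk (at least 1.53-fold), Cdk1 (at least 1.6-fold) and Mad2l1 (at least 1.31-fold) were bright. Cdk1, the kinase that drives entry into mitosis, read 6.83, 6.36, 7.19, 6.82 and 6.58 at 10 ppm, against 5.97, 4.97, 5.20, 5.29 and 5.03 at 0 ppm (fitted log2 difference 1.47, SE 0.22, limma's adjusted p = 1.4e-05).

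Replication genes are classic targets of E2F factors, and the promoters of Mcm5 and Mcm6 are shown for the letters TTTCCCGC or TTTGGCGC on either strand. These stood in 7 of 40 replication promoters (17.5%), in 1 of 39 mitosis promoters (2.56%) and in 305 of 13514 in all (2.26%). Among replication genes that rose they stood in 5 of 28 promoters (17.9%), and among all genes that rose in 23 of 714 (3.22%). The list members were named from knowledge of replication genes, with earlier results of these data known, so the list share describes the list and not these arrays. Mcm5 has 1 match at chr8:75109314-75109413 (plus strand, 195 to 96 bases before the start) and Mcm6 has 1 in the window at chr1:128359706-128359805 (minus strand, 100 to 1 bases before the start), and the matches are in capitals, written GCGCCAAA where the match lies on the other strand.
Mcm5: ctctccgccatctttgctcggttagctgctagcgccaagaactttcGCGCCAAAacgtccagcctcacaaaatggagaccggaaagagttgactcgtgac
Mcm6: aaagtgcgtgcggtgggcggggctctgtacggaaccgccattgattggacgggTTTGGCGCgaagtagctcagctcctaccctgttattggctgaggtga

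Of 45 ribosome biogenesis factors 11 rose and 0 fell, with 7 rising without replicate 4 at 10 ppm and 6 without the replicates 3 and 4 at 0 ppm. The small-subunit assembly factor Bysl rose by 0.74 and the RNA methyltransferase Fbl by 0.56. Myc rose at least 1.5-fold, fitted log2 difference 0.59, SE 0.14, limma's adjusted p = 0.00317, and Mycl, its relative in dendritic cells and epithelium, read 5.19, 5.46, 6.03, 5.50 and 6.03 at 10 ppm, against 6.81, 7.28, 7.23, 7.08 and 6.90 at 0 ppm (fitted log2 difference -1.42, SE 0.23, limma's adjusted p = 2.67e-05). Igf1, the insulin-like growth factor made by lung macrophages and mesenchyme, read 7.06, 6.64, 6.84, 7.04 and 6.85 at 10 ppm, against 5.51, 5.27, 5.92, 5.90 and 5.67 at 0 ppm (fitted log2 difference 1.23, SE 0.18, limma's adjusted p = 1.02e-05). Its binding proteins moved differently, since Igfbp3 fell by log2 difference -1.16, SE 0.19, limma's adjusted p = 4.73e-05, Igfbp6 fell by 0.64 and Igfbp4 rose by 0.30, a rise that was not called without replicate 5 at 0 ppm or replicate 3 at 10 ppm, when 1 member of the list rose.

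Chaperones of the endoplasmic reticulum rose together. Of 32 chaperones and targets of XBP1, the factor of the unfolded protein response, 21 rose and 0 fell, all 32 differences were above 0, and the median was 0.48. Sdf2l1, a co-factor of the chaperone BiP, read 10.09, 9.92, 9.91, 9.48 and 9.86 at 10 ppm, against 8.05, 8.24, 8.82, 8.0 and 7.93 at 0 ppm. Replicate 3 at 0 ppm was the highest control array and still lay below every 10 ppm array (log2 difference 1.65, SE 0.18, limma's adjusted p = 5.88e-08). Derl3, of the degradation channel, rose at least 1.39-fold, Creld2 by 1.05, the BiP partner Dnajb11 by 0.87 and Hyou1, a large chaperone, by 0.84. Hspa5, the gene of BiP itself and named after its values were seen, read 11.81, 11.85, 11.45, 11.63 and 11.80 at 10 ppm, against 10.57, 11.05, 11.35, 11.13 and 11.13 at 0 ppm (log2 difference 0.66, SE 0.13, limma's adjusted p = 0.000418).

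The endoplasmic reticulum stress response element, CCAAT and CCACG with any 9 bases between them, was searched on both strands of the same promoters after the values were seen. It stood in 10 of 25 of this list's promoters (40%), 8 of them among the 17 that rose (47.1%), and in 19 of 13514 in all (0.141%). The members of the list were named from knowledge of such targets, with earlier results of these data known, so the share describes the list and not these arrays. Both windows hold 1 match on the other strand, which begins with CGTGG and ends with ATTGG: Derl3 at chr10:75893201-75893300 (plus strand, 197 to 98 bases before the start) and Creld2 at chr15:88819479-88819578 (plus strand, 167 to 68 bases before).
Derl3: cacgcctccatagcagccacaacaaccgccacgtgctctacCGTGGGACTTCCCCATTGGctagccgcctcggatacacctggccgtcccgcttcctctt
Creld2: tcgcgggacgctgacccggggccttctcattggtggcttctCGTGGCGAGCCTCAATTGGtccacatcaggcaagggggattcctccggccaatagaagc

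Other stress programmes gave fewer calls. In the integrated stress response and serine synthesis list 6 of 29 rose and 1 fell. Psat1, an enzyme of serine synthesis, read 7.46, 7.26, 7.72, 7.70 and 7.22 at 10 ppm, against 5.76, 6.22, 6.03, 5.87 and 5.62 at 0 ppm (fitted log2 difference 1.57, SE 0.20, limma's adjusted p = 5.16e-07). The amino acid transporters Slc7a5 (at least 1.37-fold) and Slc7a1 (0.60) rose too. Of 17 cytosolic heat shock genes 4 rose, but 0 rose without replicate 1 at 10 ppm, 1 without replicate 2 at 10 ppm, 2 without the replicates 1, 4 or 5 at 0 ppm, and 1 without the replicates 3 and 4 at 0 ppm together. Hsph1, a nucleotide exchange factor of HSP70, read 11.67, 11.39, 10.58, 10.62 and 10.65 at 10 ppm, against 9.48, 10.83, 10.79, 10.11 and 9.72 at 0 ppm. Replicates 1 and 2 at 10 ppm were high and the others lay among the controls (log2 difference 0.80, SE 0.22, limma's adjusted p = 0.011). Among 22 immediate early genes Egr1 (0.68) and Fos (0.52) were among 3 that rose, 1 rose without replicate 1 at 0 ppm or 2 or 5 at 10 ppm, and 1 in place of 2 fell without any 1 of the replicates 1, 2 or 4 at 0 ppm or 3, 4 or 5 at 10 ppm. Of 24 p53 targets 2 rose and 3 fell, near the background share, with Phlda3 at 0.50 and Sesn1 at -0.67.

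Of 20 genes of sterol synthesis and uptake 14 rose and 1 fell, with 8 rising without replicate 5 at 0 ppm and 9 without replicate 1 at 10 ppm or without the replicates 3 and 4 at 0 ppm together. Cyp51, lanosterol demethylase, read 8.80, 8.51, 8.45, 8.76 and 8.44 at 10 ppm, against 7.46, 7.85, 7.55, 7.41 and 6.75 at 0 ppm (log2 difference 1.19, SE 0.19, limma's adjusted p = 2.99e-05). Sqle, which makes the first oxygenated intermediate, read 9.10, 8.91, 8.93, 9.09 and 8.91 at 10 ppm, against 7.98, 8.4, 8.28, 8.07 and 7.83 at 0 ppm (log2 difference 0.88, SE 0.11, limma's adjusted p = 7.8e-07). The isoprenoid enzymes Fdps (1.07), Idi1 (0.95) and Mvd (at least 1.51-fold) rose too. The cholesterol exporter Abcg1, bright in macrophages, read 9.57, 9.34, 9.49, 9.41 and 9.33 at 10 ppm, against 10.05, 10.24, 10.06, 10.44 and 10.39 at 0 ppm and was the member that fell (log2 difference -0.81, SE 0.13, limma's adjusted p = 1.89e-05). The sterol regulatory element TCACNCCAC stood in 1 of 15 members with a promoter (6.67%), in 0 of the 11 of these that rose and in 175 of 13514 promoters (1.29%). Fatty acid synthesis had 7 of 21 that rose and 0 that fell, Acsl4 by 0.84 and Fasn by 0.37.

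Of 30 genes of fatty acid oxidation and targets of PPAR receptors 8 fell and 1 rose. Beside Acaa1b and Fabp1 these were the thioesterases Acot1 (-0.89) and Acot2 (-1.03), Pparg and the mitochondrial enzymes Acaa2 (-0.55), Acadm and Hadh. Acadl rose by 0.46, and 0 rose without replicate 1 at 0 ppm. In glycolysis 5 of 19 rose and 2 fell. Ldhb, the lactate dehydrogenase subunit of oxidative tissues, read 9.70, 9.67, 9.84, 9.86 and 9.74 at 10 ppm, against 10.94, 11.10, 10.78, 10.85 and 10.75 at 0 ppm. Its groups did not overlap (log2 difference -1.13, SE 0.10, limma's adjusted p = 1.29e-10), and it stayed called without any 1 of the arrays, as did the risen Ldha (0.29) and Gapdh (0.31). The count that rose was 2 without replicate 5 at 0 ppm or 3 or 4 at 10 ppm or the replicates 3 and 4 at 0 ppm together, and 3 without the replicates 2, 3 or 4 at 0 ppm or 5 at 10 ppm. The count that fell was 1 without the replicates 1 or 2 at 0 ppm or 1, 2, 4 or 5 at 10 ppm. Respiratory chain subunits were near the background, with 4 of 46 that rose, 2 without replicate 4 at 0 ppm or without replicates 3 and 4 together, and 3 that fell.

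Of 21 collagens 13 rose and 1 fell, led by Col1a1 at 8.36, 8.20, 8.81, 8.31 and 8.45 at 10 ppm, against 7.64, 6.87, 7.66, 7.50 and 7.65 at 0 ppm (log2 difference 0.97, SE 0.15, limma's adjusted p = 1.08e-05). Col5a1 (0.68), Col6a2 (0.66) and Col6a3 (0.65) rose, and Col4a4, of the alveolar basement membrane, fell by 0.48. Among 40 matrix modifiers and injury matrix genes 15 rose and 0 fell. Timp1, an inhibitor of matrix metalloproteinases, read 11.07, 11.03, 11.09, 10.61 and 10.83 at 10 ppm, against 8.95, 6.88, 7.45, 6.97 and 7.22 at 0 ppm. Replicate 1 at 0 ppm was the highest control array, as it was for Saa3, and it still lay below every 10 ppm array (log2 difference 3.43, SE 0.26, limma's adjusted p = 1.23e-11). Tnc, the tenascin of healing wounds, read 7.58, 7.31, 7.41, 7.43 and 7.31 at 10 ppm, against 4.51, 4.36, 5.13, 4.39 and 4.67 at 0 ppm (fitted log2 difference 2.79, SE 0.23, limma's adjusted p = 4.41e-11). The proteases Mmp19 (at least 1.86-fold) and Adam8 (at least 2.03-fold) rose too.

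Of 9 smooth muscle and pericyte markers 5 rose and 0 fell, and the groups did not overlap for these 5, although 1 other marker fell without replicate 3 at 10 ppm. The risen share was 55.6%, against 5.17% over all genes, of which 5.62% had groups that did not overlap in that direction. Actg2, the smooth muscle gamma actin, read 8.18, 8.27, 9.14, 8.88 and 9.25 at 10 ppm, against 6.35, 7.22, 7.21, 6.55 and 5.98 at 0 ppm (fitted log2 difference 2.08, SE 0.31, limma's adjusted p = 9.52e-06). Cnn1, calponin, rose by 1.33, Myh11, the smooth muscle myosin, by at least 2.04-fold and Acta2, the alpha actin of smooth muscle and myofibroblasts, by 1.00. The list's mean was 7.87 to 8.39 at 10 ppm and 7.28 to 7.62 at 0 ppm. Whether more airway or vessel wall entered the 10 ppm samples was not tested. Among 12 fibroblast markers 3 fell, Inmt (-0.47), Dpt (-0.48) and Pdgfra (-0.46), and Col13a1 rose (0.34) but was not called without any 1 of 7 arrays (replicates 2, 4 and 5 at 0 ppm and 1, 2, 3 and 5 at 10 ppm) or without the replicates 3 and 4 at 0 ppm together. Of 14 endothelial markers Gpihbp1, the lipase anchor of capillaries, fell by log2 difference -0.48, SE 0.08, limma's adjusted p = 8.8e-05, and Car4 rose, a call lost without any 1 of 7 arrays (replicates 3, 4 and 5 at 0 ppm and 1, 2, 3 and 4 at 10 ppm) or without the replicates 3 and 4 at 0 ppm together. The endothelial shares, 7.14% in each direction, are near the 5.17% risen and 6.62% fallen over all genes.

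Clock output fell in part. Of 19 circadian genes 6 fell and 1 rose, among them Tef (log2 difference -0.92, SE 0.15, limma's adjusted p = 4.73e-05), a transcription factor driven by the core clock, the deubiquitinase Usp2 (at least 1.54-fold lower) and the repressor Cry2 (-0.59). Bhlhe40, a repressor of clock genes, rose by 0.59. Tsc22d3, a glucocorticoid-induced gene, fell by 0.71 and was 1 of 3 that fell among 21 glucocorticoid receptor targets, where 1 fell without the replicates 1, 2 or 3 at 0 ppm or 1, 4 or 5 at 10 ppm.

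Remaining genes among the 14 largest falls by fitted difference belong to no list above. Slc4a5 read 6.47, 6.11, 5.90, 6.43 and 6.24 at 10 ppm, against 7.93, 8.03, 7.82, 7.83 and 7.87 at 0 ppm (fitted log2 difference -1.67, SE 0.21, limma's adjusted p = 7.69e-07). Bex2, a small adaptor protein, read 7.10, 6.77, 6.93, 7.10 and 6.83 at 10 ppm, against 9.25, 8.34, 8.27, 8.12 and 8.19 at 0 ppm, with replicate 1 at 0 ppm highest (log2 difference -1.49, SE 0.18, limma's adjusted p = 2.71e-07). Ctsf read 6.49, 6.01, 6.52, 6.30 and 6.48 at 10 ppm, against 8.39, 7.62, 7.67, 7.50 and 7.55 at 0 ppm, again highest on that control array (at least 2.56-fold lower, fitted log2 difference -1.38, SE 0.19, limma's adjusted p = 3.66e-06). Lgals2, a galectin, read 6.05, 5.98, 5.70, 5.78 and 5.79 at 10 ppm, against 8.62, 7.55, 7.17, 6.84 and 6.72 at 0 ppm and was spread widely among the controls (at least 2.45-fold lower, fitted log2 difference -1.52, SE 0.33, limma's adjusted p = 0.00128). Gal, the neuropeptide galanin, read 5.73, 5.50, 5.63, 5.54 and 5.55 at 10 ppm, against 7.34, 7.27, 7.01, 6.98 and 6.39 at 0 ppm (fitted log2 difference -1.41, SE 0.19, limma's adjusted p = 1.92e-06). For none of these 5 did the groups overlap.

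The same arrays were set against the neighbouring doses, which share no arrays with each other but share the 10 ppm group. Against 5 ppm, 257 genes (1.5%) were higher and 537 (3.14%) lower at 10 ppm, 794 in all (4.64%). With the intensity trend of each array removed, 334 were higher and 409 lower, so the share of higher genes among those called was 45% in place of 32.4%. Against 0 ppm the same setting gave 1021 higher and 920 lower, 52.6% higher in place of 43.8%. Against 20 ppm, 8 genes (0.0468%) were higher and 11 (0.0643%) lower, 19 in all (0.111%), and 1070 had an unadjusted p under 0.05. Values of each gene below are given in the order of dose.

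Clca1 averaged 4.70, 6.72, 10.75 and 6.29 at 0, 5, 10 and 20 ppm. Its 5 ppm arrays read 5.82, 10.24, 5.02, 6.70 and 5.81 and its 20 ppm arrays 4.91, 9.59, 4.43, 8.75 and 3.77, so 1 array at 5 ppm and 0 at 20 ppm reached the range of the 10 ppm arrays. The 10 ppm group was higher than the 5 ppm group by at least 13.8-fold, fitted log2 difference 4.03, SE 0.83, limma's adjusted p = 0.00271 and than the 20 ppm group by at least 10-fold, fitted log2 difference 4.46, SE 0.83, limma's adjusted p = 0.0173. The call against 20 ppm was lost without the replicates 2, 3 or 5 at 10 ppm or 1, 3 or 5 at 20 ppm (adjusted p up to 0.0894). The replicates 2 and 4 at 20 ppm, highest for Clca1, also had the highest ciliated cell list means (7.05 and 6.87, the others 6.38 to 6.44). The same held for the smooth muscle list (8.18 and 8.11, the others 7.75 to 7.85). At 5 ppm, replicate 2, highest for Clca1, had a ciliated mean of 6.76, the others 6.74 to 7.215. Whether the tissue sampled moved with Clca1 was not tested. Ccl24 averaged 4.16, 4.16, 7.18 and 5.04 at 0, 5, 10 and 20 ppm. The 10 ppm arrays exceeded every array at 5 ppm (at least 2.74-fold higher, fitted log2 difference 3.02, SE 0.31, limma's adjusted p = 1.74e-07) and every array at 20 ppm, which read 5.62, 3.85, 3.97, 5.48 and 6.26 (fitted log2 difference 2.15, SE 0.31, limma's adjusted p = 0.000682).

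**Figure D5:**
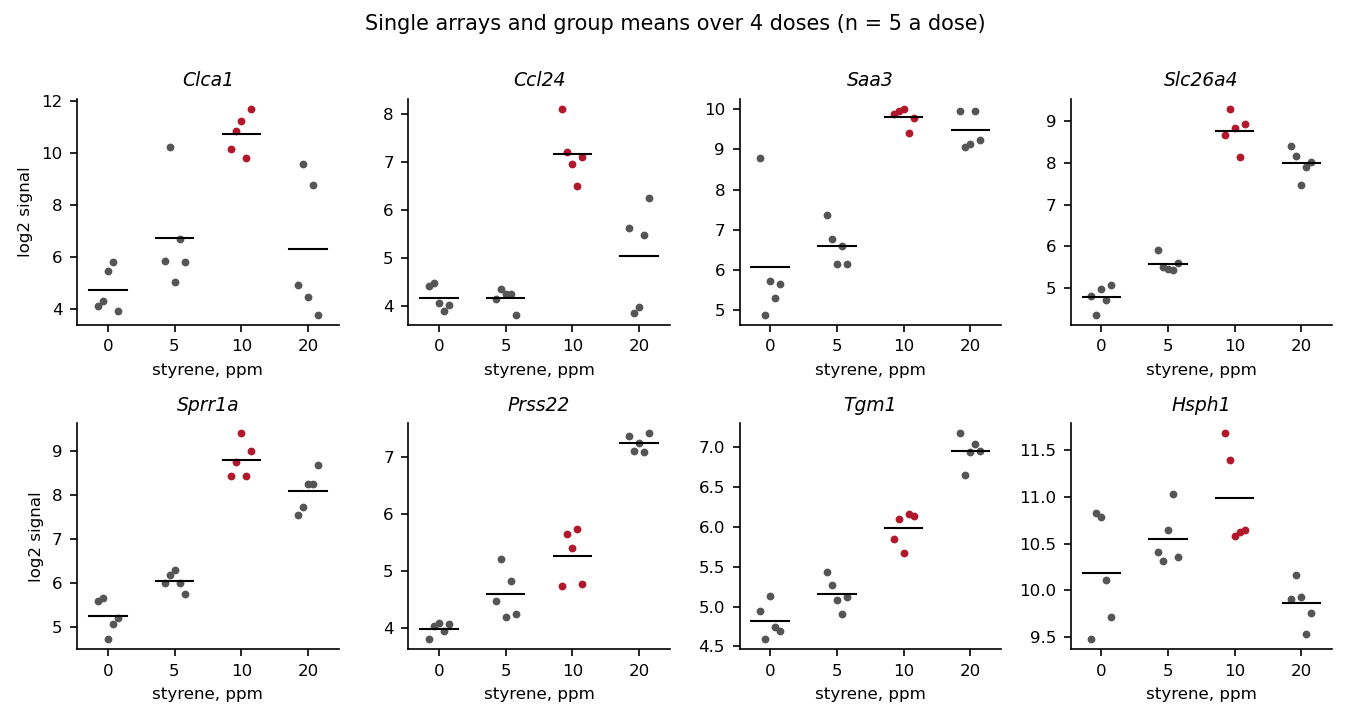
Log2 signals of single arrays (points) with group means (lines) for 8 genes at 0, 5, 10 and 20 ppm, 5 arrays a dose, with the 10 ppm arrays in red. Clca1 and Ccl24 have their highest mean at 10 ppm, Saa3, Slc26a4 and Sprr1a stand high at both 10 and 20 ppm, and Prss22 and Tgm1 are highest at 20 ppm.

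Slc26a4, Saa3, Timp1, Sprr1a, Acaa1b, Mycl, Fabp1 and Pon1 were called against 5 ppm and not against 20 ppm. Slc26a4 averaged 4.79, 5.58, 8.77 and 7.99 at 0, 5, 10 and 20 ppm, with 10 ppm above 5 ppm by at least 7.28-fold, fitted log2 difference 3.19, SE 0.37, limma's adjusted p = 1.79e-06. Saa3 exceeded its 5 ppm level by log2 difference 3.20, SE 0.42, limma's adjusted p = 8.36e-06, Timp1 by log2 difference 2.75, SE 0.26, limma's adjusted p = 3.19e-08 and Sprr1a by at least 6.53-fold, fitted log2 difference 2.76, SE 0.25, limma's adjusted p = 1.76e-08. Acaa1b (at least 1.89-fold lower, fitted log2 difference -1.83, SE 0.24, limma's adjusted p = 6.81e-06), Mycl (at least 2.46-fold lower, fitted log2 difference -1.71, SE 0.23, limma's adjusted p = 1.03e-05), Fabp1 (at least 2.28-fold lower, fitted log2 difference -1.57, SE 0.28, limma's adjusted p = 0.000673) and Pon1 (log2 difference -1.35, SE 0.17, limma's adjusted p = 5.4e-06) were lower at 10 ppm than at 5 ppm. By list, 19 of the 47 xenobiotic metabolism genes were lower at 10 ppm than at 5 ppm and 0 higher, 11 of 21 collagens and 11 of 34 chemokines were higher, and 5 of 33 antiviral effectors were higher.

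The 11 genes higher at 20 ppm than at 10 ppm included 1 of the 22 measured members of the keratins and squamous list. Prss22, an epithelial serine protease under the nonspecific control on all 5 arrays at 10 ppm, averaged 3.99, 4.59, 5.26 and 7.24 at 0, 5, 10 and 20 ppm, and its 10 ppm and 20 ppm arrays did not overlap (at least 2.31-fold lower, fitted log2 difference -1.98, SE 0.23, limma's adjusted p = 1.14e-05). Tgm1, the transglutaminase of the cornified envelope, averaged 4.82, 5.16, 5.99 and 6.95 (fitted log2 difference -0.97, SE 0.15, limma's adjusted p = 0.00179). Bex4, a relative of Bex2, was lower at 10 ppm than at 20 ppm by log2 difference -0.48, SE 0.10, limma's adjusted p = 0.0356 and the cold-inducible RNA-binding protein Cirbp by log2 difference -1.16, SE 0.22, limma's adjusted p = 0.02. Hsph1 (log2 difference 1.12, SE 0.22, limma's adjusted p = 0.02) and Sdf2l1 (log2 difference 0.87, SE 0.18, limma's adjusted p = 0.0449) were higher at 10 ppm than at 20 ppm, as was the matrix protein Tnxb (log2 difference 0.65, SE 0.12, limma's adjusted p = 0.0173). The calls of Ccl24, Prss22 and Tgm1 were kept without any 1 of the 10 arrays. Leaving out 1 array at a time, the adjusted p rose to 0.203 for Sdf2l1, 0.199 for Bex4, 0.173 for Hsph1, 0.173 for Cirbp and 0.0894 for Tnxb, so none of these 5 calls was kept throughout. In the count, 2 to 15 genes were higher and 2 to 22 lower, the highest without replicate 4 at 10 ppm.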

How the data were processed

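The authors deposited 1 table of log2 signals per probe set for 35 arrays, and per the submitters' processing notes the tools were RMA and Partek, with no version or setting given in the sources used here. RMA is built to bring arrays to a common distribution, so a shift shared by most genes can be lost. The deposited 120 ppm arrays still stood apart, with upper quartiles of 6.32 to 6.77, against 6.91 to 6.97 at 10 ppm and 6.95 to 6.97 at 0 ppm. Their highest nonspecific control was at 6.71 to 7.36. They enter the shared spread of the fit, the mean control of 6.17 and the count of dim genes. Array intensities show no counts or depth, so the number of arrays and the signal over background limit precision. Of 45037 non-control probe sets, 28898 were paired with 1 gene, 551 with several and 15588 with none in the platform annotation, and gene IDs of 16937 of the 17098 genes were matched to current symbols. The brightest probe set over all arrays stood for a gene. Each array was one sample, grouped by its labelled dose. The same animal number stands in the titles of 1 array labelled 1 ppm and 1 array labelled 5 ppm, and both were kept as labelled.

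From these values, limma 3.58.1 in R 4.3.3 fitted 1 mean per group over all 35 arrays (28 residual degrees of freedom), with moderated tests and Benjamini-Hochberg adjustment over 17098 genes at 0.05. Tables and plots were made with Python 3.11.15, pandas 2.3.3, numpy 2.4.6 and matplotlib 3.10.9, and the fit was tested on simulated data. The labels do not say that animals were independent beyond calling arrays biological replicates, so p-values measure the spread between these arrays. Array summaries were compared with two-sided exact permutation tests, whose smallest p with 5 against 5 arrays is 0.00794.

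The members and the 36 gene groups and 23 marker lists were chosen with earlier results of these data known. Of 1265 list entries, 1125 were measured. Genes named were the 14 largest rises and falls with bright groups and without provisional names, up to 6 called members per list and direction, any member of lists of up to 13 measured genes, and up to 6 genes per direction against 5 ppm and 20 ppm. Alternatives were all probe sets, averaged probe sets of each gene, dim genes left out, a fold change of at least 1.5, trended and robust variances, array weights, 3 scalings, fits without the 120 ppm group or of 2 groups alone, a replicate block and each array left out. Same-numbered arrays at 10 and 0 ppm had deviations from their group means that correlated at 0.15, -0.08, 0.083, 0.027 and 0.189. At 10 and 5 ppm the correlations were 0.088, -0.508, -0.443, 0.036 and 0.371, and at 10 and 20 ppm 0.144, 0.085, -0.182, 0.014 and -0.065. The labels state no pairing, so the numbers were not taken to pair the samples.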

Additional observations from a re-analysis of the deposited data

Results flagged for a closer look

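In 8 of 204 groups of 5 values tested, the most extreme array stood apart by Dixon's ratio, the gap to its nearest neighbour over the group's range, against a critical value of 0.71; chance gives about 1 in 20 such groups. Among control arrays, replicate 1 was high for Saa3 (ratio 0.786), Timp1 (0.725), Bex2 (0.807), Ctsf (0.81) and the mean of the mesothelial list (0.72), and replicate 2 was high for Pon1 (0.807). The mean of the EGF receptor and ligands list was low on replicate 2 at 0 ppm (0.714). The mean of the class I antigen presentation list was low on replicate 4 at 10 ppm (0.739).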

How the results depend on the processing

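Against 0 ppm, the genes higher at 10 ppm numbered 1524 and those lower 1870 over all non-control probe sets, 454 and 345 with a fold change of at least 1.5, and 1437 and 2149 with array weights, while 1713 were lower in the fit without the 120 ppm group. With 1 array left out, 744 to 809 were higher and 799 to 1166 lower. Against 5 ppm, 411 were higher over all probe sets, 108 higher and 189 lower at a fold of at least 1.5, 615 and 1281 with array weights, 414 and 1014 without the 120 ppm group, 348 lower with arrays centred on their median and 854 lower in the fit of those 2 groups alone. Leaving out 1 array gave 177 to 239 higher and 300 to 568 lower, the lowest without replicate 2 at 10 ppm. Against 20 ppm, 16 were higher over all probe sets, 5 higher and 6 lower with dim genes left out, 7 lower at a fold of at least 1.5, 81 and 127 with array weights, and 28 and 44 without the 120 ppm group, with 2 to 15 higher and 2 to 22 lower when 1 array was left out. With a replicate block, 966 were higher and 1268 lower against 0 ppm, 299 and 646 against 5 ppm, and 10 and 14 against 20 ppm. The labels state no pairing by replicate number, and none was assumed in the main fit. The cause of these moves was not tested, beyond the fewer or more features and samples that each setting uses.

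Only named genes not called against 0 ppm changed direction: Cyp2e1 was at -0.012 with array weights and at -0.377 to 0.655 with 1 array left out, Ifnar1 at 0.011 with the intensity trend of each array removed, Ifnar2 at -0.097 to 0.021 and Tnxb at -0.105 to 0.022 with 1 array left out. The medians of the Myc family list (0.013) and the alveolar macrophage list (0.007) turned positive with that trend removed. Of 57 named called genes with other bright probe sets, 55 had all of them in the same direction; Gsta2 and Fads3 did not. Among the 59 lists, the count of members higher against 0 ppm moved by over 1.5 times in 21 lists at a fold of at least 1.5, in 11 with array weights, in 11 without the replicates 3 and 4 at 0 ppm and in 0 to 5 under the other settings that keep all arrays of both groups; the count of members lower did so in 17, 16, 8 and 2 to 8 lists. Signal over background limits the dim genes: 9021 genes averaged under the highest nonspecific control. That cutoff averaged 6.17, while the second highest control averaged 4.18, so a gene under it is not always at background.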
